A study of Mus musculus with 8 samples.

Results

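The genes described here are 59 mouse genes for making ribosomes, chosen by symbol and grouped by the step at which their products act: 8 for transcription by RNA polymerase I, 31 for the small-subunit processome and the maturation of the small subunit, 12 for assembly of the large subunit and 8 for the core of the small nucleolar ribonucleoproteins (snoRNPs). All 59 were found among the 52778 features of the expression table, and all 59 passed the filter on low expression that left 15545 genes to be tested. The RNA came from embryonic mouse hearts at day 11.5, by the design text from ventricles, with 4 control libraries and 4 from Atf4(del7/del7) embryos. The mutants carry on both copies of Atf4 a loss of 7 bases in exon 3, made with CRISPR/Cas9, which shifts the reading frame, ends the protein early and spares the polyadenylation signal. The allele is present in every tissue, so a difference in the heart need not arise in heart cells. Neither group was given a drug. The labels put both groups on a C57BL/6 background, call the 4 libraries of each group biological replicates and carry batch label 1 throughout. Whether a library holds 1 embryo or a pool is not given in the sources used here.

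The labels disagree with each other on 2 points. The genotype field of the mutants reads wild type, while their titles and treatment field name the Atf4 mutant. The extraction protocol names cultured cortical neurons and depletion of ribosomal RNA, while the design text names ventricular heart and a stranded mRNA kit. The libraries themselves held cardiomyocyte markers listed as ventricular at a summed 36939 to 40447 TPM over 8 genes. Markers listed as atrial summed to 7424 to 8022 TPM over 5 genes. Cortical neuron markers summed to 1.83 to 3.73 TPM over 6 genes, with Neurod6 at 0 in all 8 libraries. These sums set heart apart from cortical neurons and were not used to tell ventricle from atrium.

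Ribosomes are built in the nucleolus. RNA polymerase I transcribes a long precursor of the ribosomal RNAs, snoRNPs guide its chemical modification, and a large assembly called the small-subunit processome forms on its front part and cuts out the RNA of the small subunit, while other factors fold and trim the RNA of the large subunit. Growing and dividing tissues such as the embryonic heart need many new ribosomes, and the MYC family of transcription factors is known to drive many of these genes through E-boxes. ATF4 is best known for driving genes of amino acid synthesis, import and tRNA charging through sites that combine C/EBP and ATF motifs.

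The promoter stretches that hold these sites are shown first, because they show where the motifs of these factors lie next to the genes. RefSeq promoter windows of GRCm38.p6, which run from 250 bases before to 50 bases after the start of a transcript, matched 51 of the 59 genes. The other genes are Tcof1, Utp6, Wdr36, Rrp12, Bop1, Rrs1, Npm1 and Fbl. Both strands were searched for the E-box CACGTG and for TGATGNAA, the C/EBP-ATF element. A gene can have several windows (59 for these 51 genes) and was counted if any of them held the motif. The E-box was found for 12 of 51 genes (23.5%). The share was 11.7% of the 10705 tested genes with a window and 8.09% of all 27025 genes with a window. Counted by window, 7.15% of all 32851 windows held it. Of the genes with a window, it was present for 1 of 7 in the polymerase I group and 9 of 28 in the small-subunit group. In the large-subunit group it was present for 2 of 9 and in the snoRNP core for 0 of 7. The 12 genes are Imp4, Nop2, Utp4, Ltv1, Utp20, Pes1, Pno1, Tsr1, Utp18, Rrn3, Wdr46 and Wdr43, and Rrn3 holds it at 2 places. TGATGNAA was found for 1 of 51 genes (1.96%), Nop14, against 2.65% of the tested genes with a window.

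Stretches upstream of Imp4, Nop2 and Utp18, at both E-boxes of Rrn3 and at the site of Nop14 follow, each read 5′ to 3′ on the strand of its gene, with the motif in capitals. The Imp4 stretch is chr1:34439681-34439740 on the plus strand, with its E-box 121 bases before the start. The Nop2 stretch is chr6:125131796-125131855 on the plus strand, with the E-box 60 bases before the start. The Rrn3 stretches are chr16:13780457-13780516 and chr16:13780624-13780683 on the plus strand, with E-boxes 215 and 48 bases before the start. The Utp18 stretch is chr11:93885767-93885826 on the minus strand, with the E-box 20 bases before the start. The Nop14 site of 24 bases is chr5:34660112-34660135 on the minus strand and begins its motif at base 22 of the transcript. There the element lies on the strand opposite to the gene, so the capitals show its reverse complement.
Imp4: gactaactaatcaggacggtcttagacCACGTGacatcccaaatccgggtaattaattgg
Nop2: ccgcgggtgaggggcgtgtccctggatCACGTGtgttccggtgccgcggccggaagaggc
Rrn3, distal: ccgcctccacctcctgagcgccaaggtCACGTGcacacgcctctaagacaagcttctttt
Rrn3, proximal: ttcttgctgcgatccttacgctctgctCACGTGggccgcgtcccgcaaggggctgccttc
Utp18: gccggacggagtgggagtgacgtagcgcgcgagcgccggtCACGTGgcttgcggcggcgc
Nop14: gcgtggttTTACATCAgcatccta

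Expression is given in TPM, a share of the transcripts of a library scaled for transcript length, so levels of different genes can be set side by side. Shares cannot show a change in the total RNA of a cell. Per library the listed TPM added up to 923473 at the least and 949762 at the most. Read numbers are unknown, so the spread of 4 libraries is the measure of error. Atf4 itself, the targeted gene, was listed at 105, 121, 115 and 105 TPM in the controls and at 166, 164, 185 and 148 TPM in the mutants, with no overlap. Its log2 fold change was 0.57 (SE 0.071, limma, Benjamini-Hochberg adjusted p = 0.0430). The transcript remains in the mutants, so this value does not check the loss of the protein. That call was lost in 7 of 8 fits that left out 1 library, with fold changes from 0.51 to 0.62. Over all 15545 genes, 6 had an adjusted p below 0.05 (0.0386%).

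None of the 59 ribosome biogenesis genes passed the test between mutants and controls. The lowest adjusted p among them was 0.809 (limma, Benjamini-Hochberg over 15545 genes), and fitted differences ran from -0.086 for Wdr36 to 0.12 for Rrp9 on the log2(TPM + 1) scale. The fitted difference was above 0 for 25 of 59 (42.4%) and below 0 for 34. Among all tested genes 48.2% were above 0, and among the 8097 tested genes in the same range of mean TPM 54.1%. Their median was -0.0050, against -0.0033 over all tested genes. At an unadjusted limma p below 0.05 there was Rrp9 on the higher side and Nop56 on the lower side, 2 of 59 or 3.39%, where 6.1% of all tested genes lay (2.65% higher and 3.45% lower). The libraries of the 2 groups did not overlap for 1 gene, Wdr36, which was lower in the mutants, where 3.68% of all tested genes had groups that did not overlap (1.63% higher and 2.05% lower). The shares at that p and without overlap lie near or under the background of the whole transcriptome. The share above 0, 42.4%, was lower than both backgrounds given for it, and that gap was not tested.

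The data bounded these differences narrowly. All 59 of the 95% intervals of the limma fit lay between -0.23 and 0.29, and 52 of 59 (88.1%) lay wholly within 0.2 of 0 on the log2 scale. The same held for 41.0% of all tested genes and for 68.0% of the 8097 tested genes whose mean TPM fell in the range of these genes. Their residual SD between libraries had a median of 0.067, against 0.10 over all tested genes and 0.076 over the genes in the same range of means. A p that misses the threshold does not show equality, and smaller differences than these intervals span could not be seen.

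**Figure D1:**
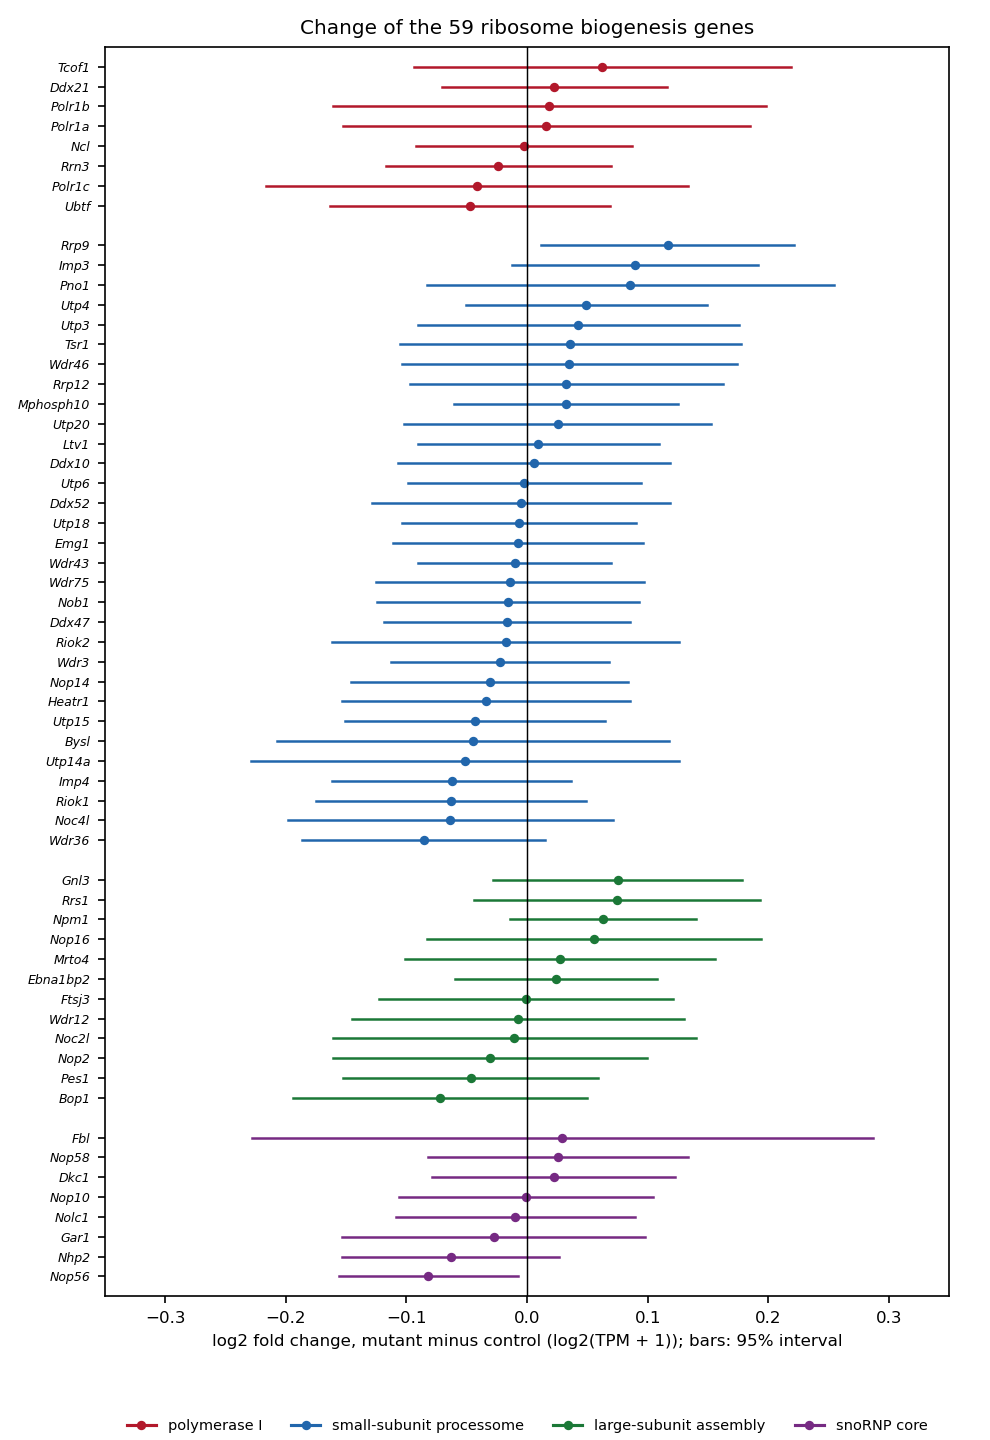
Log2 fold change of each gene, mutant minus control on the log2(TPM + 1) scale (x axis), with 1 row per gene grouped by step, where points are limma estimates and bars 95% intervals (n = 4 per group). The points run from -0.086 to 0.12, and the intervals of all genes except Rrp9 and Nop56 include 0.

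Heatr1 was the lowest at a mean of 14.1 TPM and Npm1 the highest at 853 TPM, with a median of 34.6 TPM over the 59 genes. The most abundant after Npm1 were the nucleolar RNA-binding protein Ncl at 164 TPM, then Nop56, Fbl and Nop58, the box C/D snoRNP proteins, at 120, 117 and 105 TPM. Nop56 and Fbl do not differ in order beyond their spread, since the libraries of Fbl alone run from 102 to 139 TPM. The median level was 73.8 TPM for the snoRNP core, 43.1 TPM for large-subunit assembly, 42.7 TPM for polymerase I and 27.1 TPM for the small-subunit group. Summed, the 59 genes took 0.352% ± 0.0095 of the listed TPM in controls and 0.357% ± 0.0041 in mutants (SD, n = 4), and the range of the controls, 0.339% to 0.361%, held 3 of the 4 mutant values, the fourth being 0.362%.

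**Figure D2:**
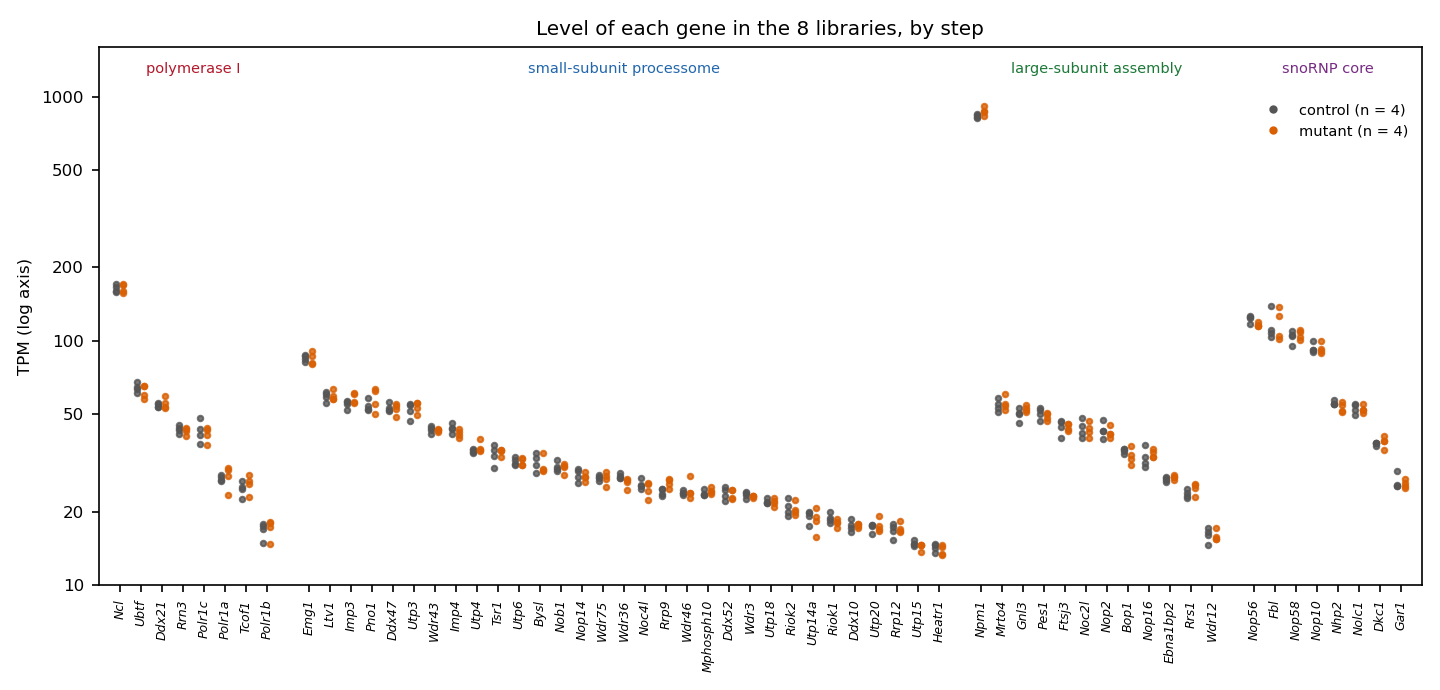
TPM of each gene in the 8 libraries (y axis, log scale), with genes ordered by level within each step and 1 point per library (grey control, orange mutant, n = 4 each). The control and mutant points of a gene lie side by side at similar levels, from Heatr1 at 14.1 TPM to Npm1 at 853 TPM. Only for Wdr36 do the groups not overlap.

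The polymerase I group asks whether the machinery that makes the ribosomal RNA precursor differs in the mutants. None of its 8 genes reached an unadjusted limma p below 0.05, 4 fitted differences were above 0 and 4 below, and the median was 0.0067. Polr1a and Polr1b, which form the catalytic core of the enzyme, were at 27.4 ± 0.75 and 16.8 ± 1.3 TPM in controls and at 27.8 ± 3.1 and 17 ± 1.6 TPM in mutants (SD, n = 4). Polr1c, a subunit shared with RNA polymerase III, was at 42.9 ± 4.5 TPM in controls and 41.6 ± 3.0 TPM in mutants. These 3 subunits had residual SDs of 0.12 to 0.13, against a median of 0.067 over the 59 genes, and the interval of Polr1c reached from -0.22 to 0.13.

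Ubtf encodes the architectural factor that coats active ribosomal DNA. It was measured at 67.7, 61.1, 63.5 and 64.5 TPM in control replicates 1 to 4 and at 65.5, 60.1, 65.5 and 57.6 TPM in mutant replicates 1 to 4. The groups overlapped, with control replicate 1 the highest and mutant replicate 4 the lowest, and the log2 fold change was -0.047 (SE 0.052, limma, adjusted p = 0.937). Tcof1 encodes treacle, a nucleolar protein that holds polymerase I and UBF together and whose loss causes a craniofacial syndrome. It was at 24.7, 25.3, 22.6 and 26.6 TPM in controls and at 25.9, 28.1, 26.8 and 23.0 TPM in mutants, so 3 mutant libraries lay above the control mean and mutant replicate 4 lay near the lowest control, with a log2 fold change of 0.062 (SE 0.070, limma, adjusted p = 0.939). Rrn3, the factor that brings the polymerase to the promoter and one of the genes with an E-box, was at 43.5 ± 1.5 TPM in controls and 42.8 ± 1.6 TPM in mutants.

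Ncl and Ddx21 act in more than the transcription step. Ncl, nucleolin, was at 171, 160, 159 and 167 TPM in controls and at 160, 156, 170 and 170 TPM in mutants, so each group ran from under 160 to 170 or 171 TPM. Its log2 fold change was -0.0025 (95% interval -0.092 to 0.087). Ddx21, an RNA helicase of the nucleolus, was at 54.6 ± 1.1 TPM in controls and 55.5 ± 2.8 TPM in mutants. The small RNA features Snora75, Snord82 and Gm24148 lie inside Ncl on its own strand, and how their reads were shared out is not given in the sources used here.

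No gene of the small-subunit group passed the test, with 12 fitted differences above 0, 19 below and a median of -0.0077 over its 31 genes. It held both the highest and the lowest difference of the 59 genes, in different complexes. In the UTP-A and UTP-B modules, which bind the precursor first and give the processome its base, 8 of 9 differences were below 0 (Utp15, Heatr1, Wdr43, Wdr75, Utp6, Utp18, Wdr3 and Wdr36) and 1 above (Utp4), with a median of -0.014. These values came from the same 8 libraries, so their common sign is a description.

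Wdr36, a UTP-B protein, was at 27.4, 28.8, 28.0 and 27.6 TPM in controls and at 26.9, 27.3, 24.6 and 26.3 TPM in mutants. All mutants lay below all controls, though only just, since the highest mutant was at 27.30 TPM and the lowest control at 27.36 TPM. The log2 fold change was -0.086 (SE 0.045, limma, unadjusted p = 0.0866, adjusted p = 0.843). The groups overlapped under median-of-ratios scaling, quantile normalization and rescaling without mitochondrial and haemoglobin genes. There Nop56 and Rrp9 were the genes without overlap instead, or 3.39% of the 59 genes. In those settings, in that order, 3.85%, 3.65% and 3.79% of all tested genes had groups without overlap.

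Rrp9 encodes the U3 snoRNP protein that binds the guide RNA of the first cleavages. It was at 24.7, 23.7, 23.1 and 24.8 TPM in controls and at 27.3, 24.8, 26.8 and 25.9 TPM in mutants. Mutant replicates 1, 3 and 4 lay above every control, and mutant replicate 2, at 24.76 TPM, lay just under the highest control at 24.83 TPM. The log2 fold change was 0.12 (SE 0.047, 95% interval 0.012 to 0.22), with a limma p of 0.0329 before and 0.809 after adjustment over all genes. It stayed above 0 in all 17 alternatives, from 0.097 to 0.14. These refits reuse the same libraries and Rrp9 was named for its small p, so the kept sign is a description.

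Imp3, Imp4 and Mphosph10 form the MPP10 complex, which joins the U3 RNA to the precursor. Imp3 was at 56.5, 55.3, 56.2 and 51.9 TPM in controls and at 60.9, 55.8, 61.3 and 56.3 TPM in mutants. Mutant replicates 1 and 3 lay above all controls and the others within the control range, with a log2 fold change of 0.089 (SE 0.045, limma, adjusted p = 0.841). Imp4 lay on the other side, at 43.7 ± 1.9 TPM in controls and 41.8 ± 1.6 TPM in mutants (SD, n = 4; log2 fold change -0.063), and Mphosph10 was at 23.7 ± 0.62 and 24.3 ± 0.68 TPM. The ratio of Imp4 to Mphosph10 was 1.84 ± 0.045 in controls and 1.72 ± 0.037 in mutants, without overlap of the libraries (two-sided exact permutation p = 0.0286, the smallest that 4 against 4 libraries allow, and 0.20 after Benjamini-Hochberg adjustment over the 14 ratios computed). The ratio of Imp3 to Imp4 was 1.26 ± 0.069 in controls and 1.40 ± 0.084 in mutants (exact permutation p = 0.0571, adjusted 0.240). Neither ratio passed the adjustment, but that outcome was nearly fixed in advance. With a smallest p of 0.0286, no ratio could pass unless most of the 14 parted the groups fully. Only the ratios of Imp4 to Mphosph10 and of Nhp2 to Dkc1 did so. The exact permutation p of the other ratios ran from 0.0571 to 0.971.

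Of the other processome factors, the methyltransferase Emg1 was the most abundant in the group, at 81.9, 84.6, 86.8 and 87.9 TPM in controls and 91.4, 81.4, 80.4 and 86.5 TPM in mutants. The mutant values spread on both sides of the controls, and the log2 fold change was -0.0077 (SE 0.046, limma, adjusted p = 0.995). Nop14, the gene with the C/EBP-ATF element in its window, was at 28.3 ± 1.6 TPM in controls and 27.7 ± 1.1 TPM in mutants, a log2 fold change of -0.031 (95% interval -0.15 to 0.084). Noc4l, the partner of Nop14, was at 25.8 ± 1.2 and 24.7 ± 1.8 TPM. Utp14a, an activator of the helicase that takes U3 off the precursor, had the widest interval of this group on the lower side, from -0.23 to 0.13, with mutant replicate 2 at 15.8 TPM and the other mutants between 18.3 and 20.6 TPM. Utp3, Utp20 and Wdr46 had differences of 0.042, 0.025 and 0.035.

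The 3 DEAD-box helicases, enzymes that unwind RNA, sat within 0.02 of 0, with 0.0056 for Ddx10, -0.017 for Ddx47 and -0.0050 for Ddx52. The 8 factors that mature the small subunit and take it to the cytoplasm split into 4 above 0 and 4 below. Pno1, which holds the platform at which the last cut is made, had the highest fitted difference of them, with 54.2 ± 2.8 TPM in controls, 57.8 ± 6.4 TPM in mutants and a log2 fold change of 0.086 with a 95% interval from -0.083 to 0.25. Its mutant libraries fell apart into 62.4 and 63.5 TPM on one side and 50.01 and 55.3 TPM on the other. Nob1, the nuclease that makes that cut, was at 30.5 ± 1.4 and 30.2 ± 1.3 TPM. The kinases Riok1 and Riok2 had differences of -0.063 and -0.018, and Bysl, Ltv1, Tsr1 and Rrp12 lay between -0.045 and 0.036.

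**Figure D3:**
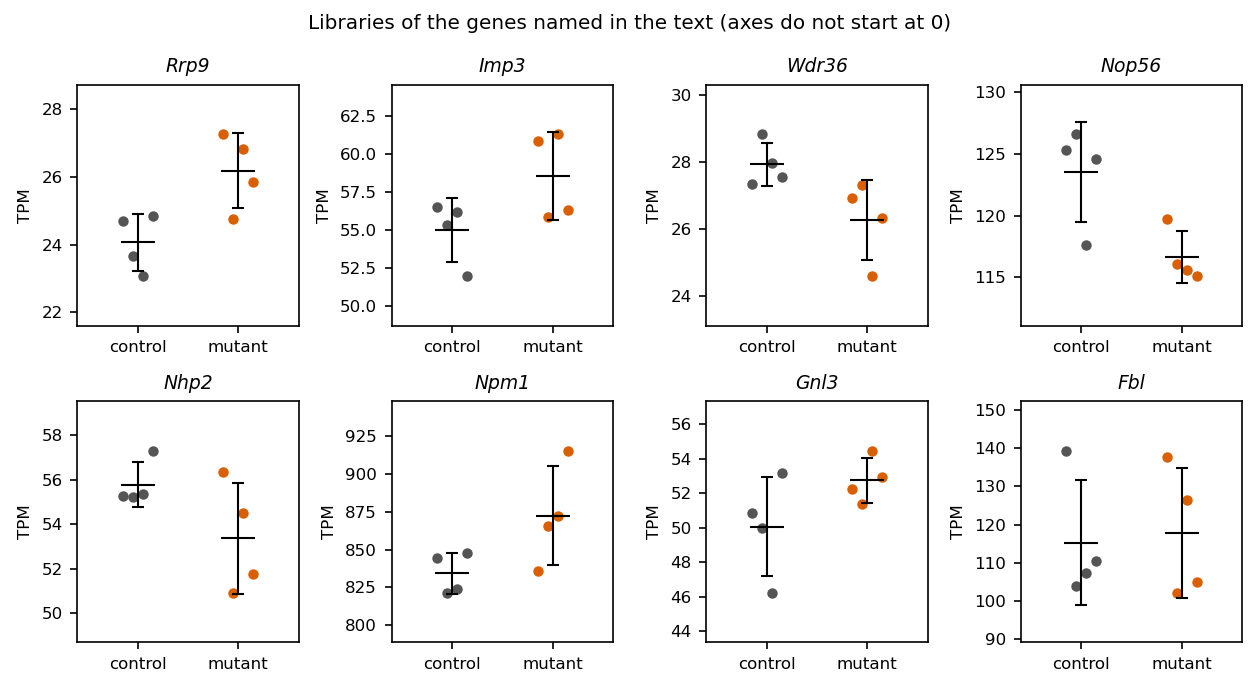
TPM in each control and mutant library (points) with group mean and SD (bars, n = 4) for 8 genes, on axes that do not start at 0. Wdr36 is the gene whose groups do not overlap, while a single library closes the gap between the groups of Rrp9 and the libraries of Fbl spread from 104 to 139 TPM in controls and from 102 to 138 TPM in mutants.

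Among the 12 large-subunit genes 6 differences lay above 0 and 6 below, with a median of 0.012 and no unadjusted limma p below 0.05. Pes1, Bop1 and Wdr12 form the PeBoW complex, which is needed to process the RNA of the large subunit in growing cells. All 3 were below 0, at -0.047, -0.072 and -0.0077. The ratio of Pes1 to Bop1 was 1.43 ± 0.065 in controls and 1.45 ± 0.077 in mutants and that of Pes1 to Wdr12 was 3.17 ± 0.14 and 3.09 ± 0.10 (SD, n = 4; exact permutation p = 0.686 and 0.343). Pes1 was above Bop1 and Bop1 above Wdr12 in all 8 libraries.

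Npm1, nucleophosmin, is an abundant nucleolar chaperone that acts on assembly and export of the subunits. It was at 845, 822, 824 and 848 TPM in controls and at 836, 866, 872 and 915 TPM in mutants. Mutant replicates 2, 3 and 4 lay above all controls and mutant replicate 1 among them, with a log2 fold change of 0.063 (SE 0.034, limma, adjusted p = 0.845). Gnl3, nucleostemin, a GTP-binding protein of dividing cells, was at 50.8, 50.02, 46.2 and 53.2 TPM in controls and at 52.2, 51.4, 54.5 and 52.9 TPM in mutants. Only mutant replicate 3 exceeded the highest control, and control replicate 3 lay far below the rest. Its log2 fold change was 0.075 (SE 0.046, limma, adjusted p = 0.865).

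The other large-subunit factors lay between -0.031 for the methyltransferase Nop2, which has an E-box, and 0.074 for Rrs1, which helps bring the 5S ribosomal RNA particle into the subunit. Nop16 was at 33.2 ± 2.9 TPM in controls and 34.5 ± 1.3 TPM in mutants. Noc2l, Mrto4, Ebna1bp2 and Ftsj3 had differences of -0.011, 0.028, 0.024 and -0.00086. Within the group, Ebna1bp2 varied little, with all 8 libraries between 26.6 and 28.3 TPM.

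The snoRNP core proteins sit on guide RNAs that direct methylation (box C/D) or pseudouridine formation (box H/ACA). Of 8 genes, 3 differences were above 0 and 5 below, with a median of -0.0054. Nop56, a box C/D protein, was at 125, 127, 118 and 125 TPM in controls and at 120, 116, 116 and 115 TPM in mutants. The mutants lay below 3 of the 4 controls, and control replicate 3 lay below mutant replicate 1. The log2 fold change was -0.082 (SE 0.033, 95% interval -0.16 to -0.0074), with a limma p of 0.0345 before and 0.809 after adjustment. It stayed below 0 in all 17 alternatives and reached an unadjusted limma p below 0.05 in 9 of them. Nop56 too was named for its small p, and the refits reuse the same libraries, so this is a description.

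Nop56 shares bases with Idh3b on the opposite strand, at 246 TPM, and with snoRNA features on its own strand, of which LOC115489632 was at 39.3 TPM. Idh3b had a difference of -0.024 and LOC115489632 one of -0.077. Whether reads were counted by strand is not given in the sources used here, so reads of these overlapping features cannot be told apart with certainty, and their part in the value of Nop56 was not tested. The same limit touches 23 of the 59 genes, among them Bysl under Ccnd3 at 379 TPM, Gnl3, Emg1, Nhp2, Bop1 and Ftsj3.

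Nop58, the partner of Nop56, lay on the other side of 0, at 104 ± 6.0 TPM in controls and 106 ± 4.3 TPM in mutants (log2 fold change 0.026). The ratio of Nop56 to Nop58 was 1.19 ± 0.031 in controls and 1.10 ± 0.063 in mutants (SD, n = 4; exact permutation p = 0.0857, adjusted 0.240). Fbl, fibrillarin, the methyltransferase of the box C/D particle, was at 139, 104, 107 and 111 TPM in controls and at 138, 102, 126 and 105 TPM in mutants. Control replicate 1 and mutant replicates 1 and 3 stood above the other 5 libraries, so both groups covered nearly the same range, and Fbl had the widest interval of the 59 genes, from -0.23 to 0.29. Fbl is described in full because of that spread, which was seen before it was chosen.

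Dkc1, Gar1, Nhp2 and Nop10 make up the box H/ACA core, which telomerase also uses. Nhp2 was at 55.3, 55.2, 55.3 and 57.3 TPM in controls and at 56.3, 50.9, 54.5 and 51.8 TPM in mutants. Mutant replicates 2, 3 and 4 lay below every control and mutant replicate 1 lay above 3 of them, with a log2 fold change of -0.063 (SE 0.040, limma, adjusted p = 0.867). Dkc1, the pseudouridine synthase, was at 38.0 ± 0.52 TPM in controls and 38.6 ± 2.1 TPM in mutants. The ratio of Nhp2 to Dkc1 was 1.47 ± 0.023 in controls and 1.38 ± 0.040 in mutants, without overlap (exact permutation p = 0.0286, adjusted 0.20). It did not pass the adjustment either, under the limit given above for the ratio of Imp4 to Mphosph10. Nop10 was at 93.1 ± 4.6 and 93.0 ± 4.6 TPM, and Nop10 exceeded Nhp2, Nhp2 exceeded Dkc1 and Dkc1 exceeded Gar1 in all 8 libraries. Nolc1, the chaperone of both kinds of snoRNP, was at 52.8 ± 2.6 and 52.4 ± 1.8 TPM.

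Averaged over the 59 genes, log2(TPM + 1) differed by 0.00017 between the groups, with an SD of 0.035 between libraries of a group. Control replicate 3 was the lowest of the 4 controls for 33 of the 59 genes (55.9%), against 35.3% of all tested genes, and the highest for 2. With median-of-ratios scaling it was the lowest for 27 (45.8%), against 27.1% of all tested genes. Of the 4 steps, its mean log2(TPM + 1) was lowest among the controls in every one, for example 5.51 in large-subunit assembly, where the other controls lay between 5.58 and 5.65 and the mutants between 5.59 and 5.63. Mitochondrial transcripts took 14.98% of the listed TPM in control replicate 3 and 12.9% to 14.1% in the other libraries, and their part in this pattern was not tested. In the polymerase I group mutant replicate 4 was the lowest library, at 5.37 against 5.40 to 5.53 in the others. Without control replicate 3 the median difference of the 59 genes was -0.018 with 19 above 0, and without control replicate 1 it was 0.018 with 34 above 0.

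**Figure D4:**
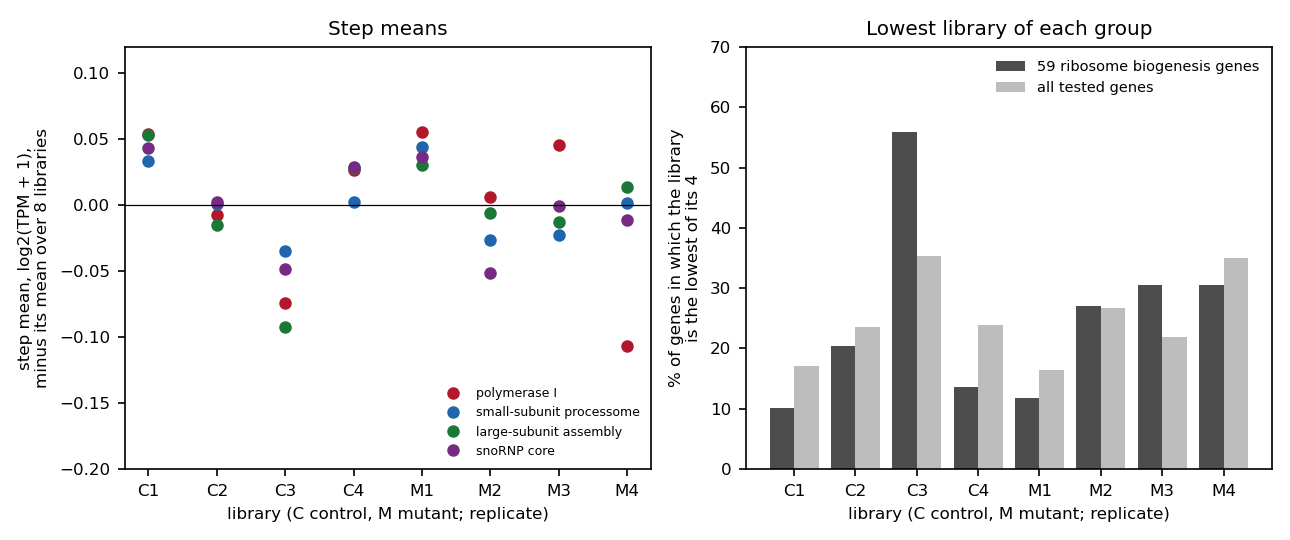
Left, mean log2(TPM + 1) of each step in each library minus the mean over the 8 libraries; right, percent of genes for which a library is the lowest of its group of 4, for the 59 genes (dark) and all 15545 tested genes (light). Control replicate 3 is the lowest control for 55.9% of these genes against 35.3% of all tested genes.

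The number of genes at an unadjusted limma p below 0.05 likewise followed single libraries. It was 0 without control replicate 2, 1 without control replicate 1, control replicate 3, mutant replicate 3 or mutant replicate 4, 2 without control replicate 4 and 3 without mutant replicate 2. Without mutant replicate 1 it was 4 (Bop1, Nhp2, Nop56 and Npm1), or 6.78%, where 6.67% of all tested genes lay at that p in the same fit. In the other 7 fits the share of all tested genes was 5.17% to 6.57%, above that of the 59 genes in each. The number of genes whose groups do not overlap ran from 1 to 5 over the same 8 fits. The 5 again came without mutant replicate 1, or 8.47%, where 7.41% of all tested genes had groups that do not overlap. In the other 7 fits the share was 1.69% to 6.78%, against 6.09% to 7.58% of all tested genes. No gene of the 59 had an adjusted p below 0.05 in any of the 17 alternatives, and the lowest was 0.694, for Nop56 and Rrp9 under median-of-ratios scaling.

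Other genes of the pathway were called in no case either. Of 119 further genes for polymerase I, both subunits, snoRNP assembly and the trimming of the precursor, 0 passed the limma test after adjustment, 61 differences were above 0 and 58 below, and the median was 0.0011. At an unadjusted limma p below 0.05 there were 4, all on the higher side, or 3.36%, where 6.1% of all tested genes lay in either direction and 2.65% on the higher side. Ttf1, which stops polymerase I at the end of the ribosomal DNA, was at 7.38, 6.62, 9.92 and 5.95 TPM in controls and 8.52, 10.1, 10.1 and 9.46 TPM in mutants. Control replicate 3 alone kept the groups of Ttf1 from parting, and its log2 fold change was 0.34 (SE 0.13, limma, adjusted p = 0.809). The others were the large-subunit factor Sdad1 at 0.13, the cap methyltransferase of snoRNAs Tgs1 at 0.080, and Twistnb, a polymerase I subunit named here after its values were seen, at 0.13. Groups did not overlap for 1 of the 119, Tgs1, at 33.5 to 34.5 TPM in controls and 35.2 to 36.8 TPM in mutants. Of all tested genes, 3.68% had groups that did not overlap. Among the small-subunit factors the lowest p was that of Esf1 at 0.088, and among nucleases and exosome genes that of Xrn2 at -0.070, with limma adjusted p of 0.843 and 0.841.

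None of the MYC factors passed the test. Myc was at 13.1 ± 0.78 TPM in controls and 13.6 ± 1.7 TPM in mutants (SD, n = 4), Mycn at 41.0 ± 2.6 and 42.3 ± 0.54 TPM, and their partner Max at 36.7 ± 2.4 and 36.4 ± 2.1 TPM, with limma adjusted p from 0.929 to 0.992. The 12 genes with an E-box had a median difference of 0.0016 and the 39 with a window and no E-box one of -0.0077. Features for ribosomal RNA itself summed to 3533 to 4567 TPM in controls and 3518 to 5819 TPM in mutants, nearly all from Rn18s-rs5 (log2 fold change 0.12, limma, adjusted p = 0.939). The labels name both mRNA selection and removal of ribosomal RNA, so this value is what the preparation left behind and gives no measure of polymerase I output.

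The tissue is a mixture, and in bulk RNA fewer cells of a type and less RNA per cell cannot be told apart. Proliferation markers, 6 genes of dividing cells, summed to 893 to 968 TPM in controls and 953 to 975 TPM in mutants, and erythroid markers over 5 genes to 3195 to 5392 TPM and 2992 to 4116 TPM. Of the fitted differences, all 6 of the proliferation markers were above 0, with a median of 0.065. Of the erythroid markers 4 were below 0 and 1 above, with a median of -0.23. Among all tested genes 48.2% were above 0. Atrial, endocardial, epicardial and valve marker sums overlapped between the groups too. None of these markers had an adjusted p below 0.05 in the limma fit, and their part in the values of the ribosome biogenesis genes was not tested.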

How the data were processed

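The authors deposited 1 table of TPM values with 1 column per library. The submitters' processing notes name FastQC, Trim Galore 0.6.7, HISAT2 2.2.1, StringTie 2.2.1, featureCounts, DESeq2 and the builds GRCm38 and mm10, without their roles. The strand setting and the handling of overlapping features are not given in the sources used here. Coordinates count from 1, and the starts and ends of all 59 genes are those of RefSeq GRCm38.p6.

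Values were analysed as log2(TPM + 1), which understates changes of low genes. A gene was tested where 4 or more of the 8 libraries reached 1 TPM. The genotype difference was fitted with limma 3.58.1 under R 4.3.3, with a variance trend and without covariates, and two-sided p-values were adjusted by Benjamini-Hochberg over all 15545 genes at 0.05. The fit was also run on simulated data. How often it recovered small changes is not reported here, so that run says nothing about differences as small as those above. Ratios, tables and plots used Python 3.11.15, pandas 2.3.3, numpy 2.4.6 and matplotlib 3.10.9.

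The genes, their steps, the other lists and the tests were chosen with earlier results of these data known. Values in every library are given for members with an adjusted p below 0.05, for the 2 with the smallest p and the 1 with the highest mean in each step, and for those whose groups do not overlap. Of each other pathway list the gene with the smallest p is named, with the MYC factors and Atf4. Ncl, Ddx21, Npm1 and Nolc1 act in several steps and were placed in 1. Also run were array weights, a pseudocount of 0.1, the filter dropped or raised to 5 TPM, scaling by median of ratios, normalization by quantiles, rescaling without mitochondrial and haemoglobin genes, no variance trend, the replicate number as a block and each library left out in turn.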

Additional observations from a re-analysis of the deposited data

Results flagged for a closer look

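In groups of 4 libraries, 7 of 146 group values tested held a library that stood far from the other 3 by Dixon's ratio at the 95% level, where chance alone gives about 7.3. Mutant replicate 1 held 39.6 TPM of Utp4, where the remaining mutants held 35.3 to 36.0 TPM. The same library was also high for Bysl, at 34.9 TPM against 29.2 to 29.9 TPM, for Wdr12, at 17.1 TPM against 15.4 to 15.7 TPM, and for Myc, at 16.1 TPM against 12.5 to 12.9 TPM. Utp15 was low in mutant replicate 4, at 13.7 TPM with the other mutants all at 14.6 TPM. Control replicate 4 was high for Gar1, at 29.4 TPM against 25.5 to 25.7 TPM, and for Nhp2, at 57.3 TPM against 55.2 to 55.3 TPM.

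With the deviating library left out, the log2 fold change of Gar1 was 0.021 in place of -0.028 and that of Myc -0.041 in place of 0.038. That of Bysl was -0.10 in place of -0.045, of Wdr12 -0.040 in place of -0.0077, of Utp4 0.012 in place of 0.049, of Utp15 -0.021 in place of -0.043 and of Nhp2 -0.051 in place of -0.063. None of these had an adjusted p below 0.05 in limma, with or without the library.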

How the results depend on the processing

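No ribosome biogenesis gene passed the adjusted limma threshold in any of 17 alternatives. The 6 calls among all genes became 0 with no filter, with no variance trend and with the replicate block, and 0 to 3 with each library left out. Genes at an unadjusted limma p below 0.05 numbered 2, or 3.39%, where 6.1% of all tested genes lay. With no filter they numbered 3 (Wdr36 added), or 5.08%, where 5.26% of all tested genes lay. Quantile normalization also gave 3 (Npm1 added), or 5.08% against 6.40%. There was 1 with no variance trend (1.69% against 6.16%) and 0 with the replicate block (0% against 5.56%). With each library left out the number was 0 to 4. Genes whose groups do not overlap numbered 1, or 1.69%, against 3.68% of all tested genes, and 1 to 5 with each library left out. They numbered 2, or 3.39%, with median-of-ratios scaling, with quantile normalization and without mitochondrial and haemoglobin genes. In these settings, in that order, 3.85%, 3.65% and 3.79% of all tested genes had groups that do not overlap. The Atf4 call was kept in 5 of 17 alternatives and lost with no filter (0.57, adjusted p = 0.354), quantile normalization (0.55, 0.0611), rescaling without mitochondrial and haemoglobin genes (0.56, 0.0551), no variance trend (0.57, 0.215), the replicate block (0.57, 0.250) and 7 of 8 left-out libraries (0.51 to 0.62). The cause of these losses was not tested.

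Median differences of the 59 genes and of each step moved by less than the spread between libraries throughout, from -0.027 to 0.041, and changed sign in some settings. An alternative chosen after seeing the data, the 36 genes without an overlapping feature, gave a median of 0.0075 with 19 above 0. The 23 genes with an overlapping feature had a median of -0.011 with 6 above 0. Same-numbered libraries showed no sign of pairing, with deviations correlated at -0.038, 0.035, -0.037 and -0.082 across genes. Weak correlations cannot show that pairing is absent, and whether replicate numbers pair the libraries is unknown. TPM keeps no read depth, so no counting error can be given.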
